A study of Mus musculus with 21 samples.

Results

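The Notch pathway was followed through 10 genes: the receptors Notch1, Notch2 and Notch3, the ligands Jag1, Jag2 and Dll1, and the target genes Hes1, Hey1, Heyl and Nrarp. They were taken by name from a table of 23713 genes, and all 10 are in it. RNA was sequenced from keratinocytes of mouse tail epidermis in 3 models of basal cell carcinoma (BCC), and each model has its own tumour-free controls (Con). SmoM2, named for an activated form of the Hedgehog receptor component Smoothened, was sampled 29 days after tumour induction as batch A, with 3 Con and 4 BCC libraries. Gnas-eKO, named for loss of the stimulatory G protein gene Gnas, was sampled at 42 days as batch B, and PKI, a name shared with an inhibitor of protein kinase A, at 57 days as batch C. Both also have 3 Con and 4 BCC libraries. The labels give no allele, promoter, Cre driver, inducing agent, strain or age, and they do not say what the Con mice carry. Model, batch and day cannot be told apart, so BCC was compared with Con within a model. In SmoM2 tumour and control animals are named with different prefixes, and the meaning of the prefix is not stated. Replicates are libraries of differently named animals, and p-values measure the spread between these libraries.

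Notch is a receptor that is cut after it binds a ligand on a neighbouring cell, and the freed inner part joins the DNA-binding protein RBPJ to switch on target genes. In the epidermis Notch is best known for driving keratinocytes out of the basal layer into differentiation, and loss of Notch1 in mouse skin promotes tumours, basal cell carcinoma-like ones included. Jag1 and Jag2 are ligands of the Jagged type and Dll1 is a ligand of the Delta type. Hes1, Hey1 and Heyl are related transcriptional repressors, and Nrarp is a small protein that damps Notch signalling.

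Genes with an edgeR quasi-likelihood adjusted p under 0.05 over all genes tested in a comparison were called changed. In SmoM2, 6 of the 10 genes changed, where 29.7% of all tested genes did. Jag1, Hey1 and Heyl rose, and the 3 receptors fell. Of all genes, 16.2% rose and 13.5% fell. In Gnas-eKO, Hey1 alone was called, 1 of 10 against 1.63% of all genes (1.46% rose and 0.165% fell). These Gnas-eKO counts depended on the setting. With 1 library left out, 0 to 4 of the 10 and 0 to 1910 of all genes were called, and a joint fit of all libraries called 5 and 2644. In PKI, 4 of 9 tested genes changed, where 34.5% of all genes did. Jag1 and Heyl rose, as did 18.7% of all genes, and Jag2 and Dll1 fell, as did 15.8%, while Hey1 was too low to be tested. The tested members had a median log2 fold change of 0.02 in SmoM2, where all genes had 0. In Gnas-eKO it was 0.16 against 0.02, and in PKI −0.03 against 0.

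**Figure D1:**
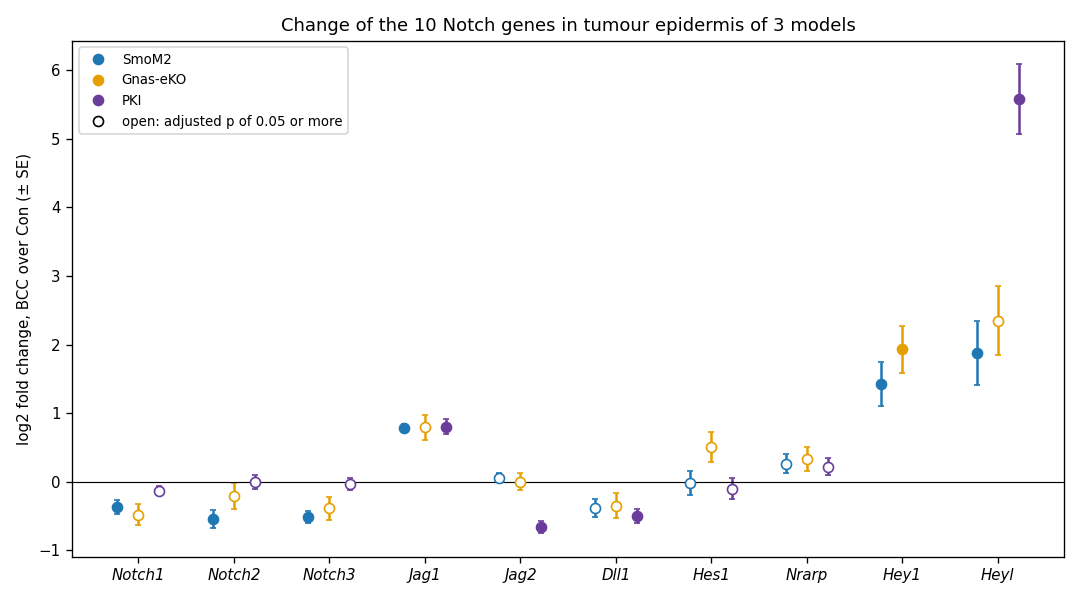
Log2 fold change of BCC over Con for each of the 10 genes (y axis, with its SE) in SmoM2, Gnas-eKO and PKI. Filled points passed the adjusted threshold. Jag1 lies between 0.78 and 0.80 in the 3 models, and Heyl in PKI, at 5.58, stands far above every other point. Hey1 has no point in PKI because it was not tested there.

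Promoter sequence is shown for Jag1, which rose, and for Notch2 and Notch3, which fell in SmoM2, so that genes moving in opposite directions can be set side by side. Each is RefSeq sequence of GRCm38.p6 that lies before the annotated start of the gene, written 5′ to 3′ on the strand of the gene. Jag1 is chr2:137116645-137116770 on the minus strand, Notch2 is chr3:98013288-98013526 on the plus strand, and Notch3 is chr17:32166891-32167140 on the minus strand.
Jag1: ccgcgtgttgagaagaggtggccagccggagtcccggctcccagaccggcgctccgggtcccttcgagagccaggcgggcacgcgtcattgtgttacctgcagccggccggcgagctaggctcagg
Notch2: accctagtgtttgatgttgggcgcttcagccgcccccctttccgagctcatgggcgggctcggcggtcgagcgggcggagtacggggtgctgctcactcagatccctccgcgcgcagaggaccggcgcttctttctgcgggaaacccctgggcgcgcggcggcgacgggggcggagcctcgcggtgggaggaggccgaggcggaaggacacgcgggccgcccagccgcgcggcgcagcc
Notch3: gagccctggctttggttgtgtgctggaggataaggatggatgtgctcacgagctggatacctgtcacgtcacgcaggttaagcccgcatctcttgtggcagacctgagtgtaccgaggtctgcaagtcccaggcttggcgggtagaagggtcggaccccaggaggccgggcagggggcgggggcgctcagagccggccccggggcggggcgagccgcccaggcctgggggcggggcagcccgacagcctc
All 3 stretches are rich in G and C, at 70.6%, 74.1% and 68.8%. The 250 bases before the start that RefSeq gives were searched whole, on both strands, in the 8 promoters it lists for 7 of the genes (Notch1, Notch2, Notch3, Jag1, Jag2, Dll1 and Nrarp). For some genes these windows reach into the longer gene body of the GENCODE annotation, and such bases were searched but are not printed. The letters TGGGAA, the core of the RBPJ motif, CTTTGA, a core of the LEF/TCF motif, and GACCACCCA, the GLI motif, matched in none of the 8, so nothing is in capitals. Among 32851 mouse promoters of the same length, 21.6%, 13.8% and 0.225% hold them. The absence says only that these exact letters are not in these windows.

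The libraries held 16645858 to 22251132 counts, and levels are given as CPM, counts scaled to a common library size (TMM). At this depth 3 counts are at most 0.19 CPM. The names of the models were checked first. Gnas lay at 172 to 178 CPM in Gnas-eKO Con and at 50.6 to 114 in Gnas-eKO BCC. Smo lay at 93.8 to 110 CPM in SmoM2 Con and at 283 to 313 in SmoM2 BCC. How PKI was made is not in the labels, and whether its RNA is counted under Pkia, the mouse gene of the inhibitor, is not known. Pkia lay at 3.73 to 5.0 CPM in PKI Con and at 2.1 to 3.75 in PKI BCC (log2 fold change −0.62, edgeR adjusted p 0.0956), so it was not higher in the libraries with that label. In every BCC library, with 1 exception, the Hedgehog target Gli1 was above the Con libraries of its model. The exception was Gnas-eKO BCC replicate 2, with 9.64 CPM of Gli1 against 4.76 to 9.98 in its controls. On the first principal component it lay at −20.5, between the Con libraries (−57.1 to −40.3) and the other BCC libraries (32.4 to 59.4). The label of keratinocytes was checked by 7 basal markers, such as Krt5 and Krt14, whose sum was 16400 to 40200 CPM over the libraries.

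Per length, the tail epidermis of the 9 Con libraries held far more RNA of 8 of these genes than of Hey1 and Heyl. Levels of different genes were compared as CPM per kilobase of exon, over the union of a gene's exons. Nrarp was the highest, at 47.6 ± 5.5 CPM per kilobase (SD, n = 9), followed by Jag2 at 40.9 ± 4.88, Hes1 at 32.3 ± 6.67 and Notch1 at 30.7 ± 1.75. Jag1 followed at 21.4 ± 2.46, Notch3 at 17.4 ± 1.17, Notch2 at 13.3 ± 2.04 and Dll1 at 8.9 ± 1.4. Hey1 at 0.246 ± 0.0834 and Heyl at 0.233 ± 0.189 CPM per kilobase came last. Along this order the ranges of neighbours overlapped except between Notch1 and Jag1 and between Dll1 and Hey1, and Hey1 was above Heyl in 6 of 9 libraries. With the length of the longest transcript in place of the exon union, Jag2 (55.8), Nrarp (47.6), Notch1 (46.1) and Hes1 (44.8) led in that order. Notch1 was thus the most abundant of the receptors, and Jag2 of the ligands, by either length.

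**Figure D2:**
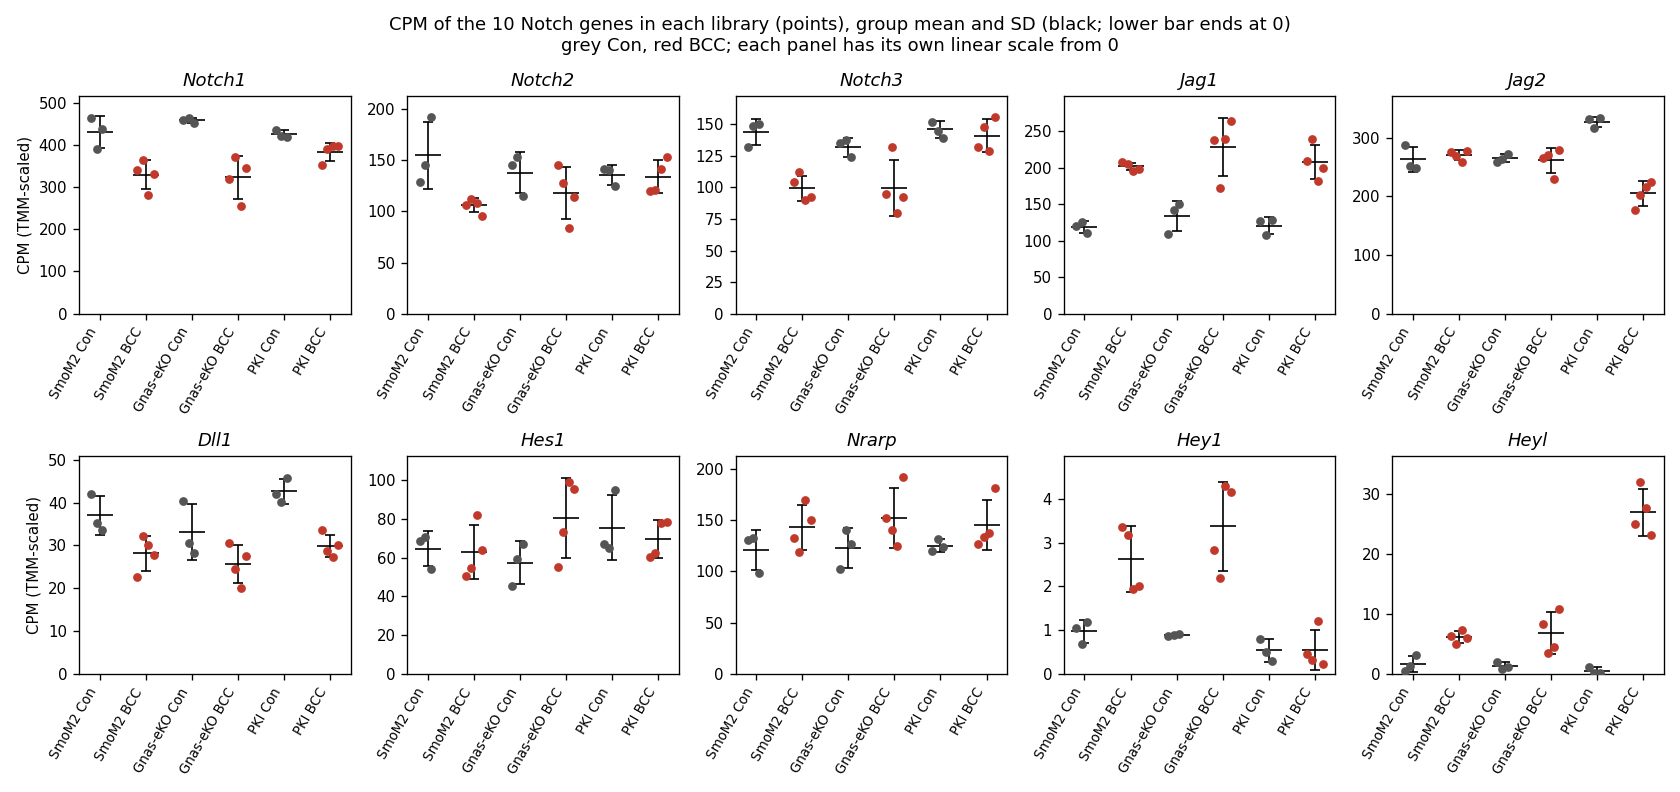
CPM on a linear scale from 0 in each of the 21 libraries (points), with the mean and SD of each group, for the 10 genes in panels of their own. Red BCC points lie above all grey Con points for Jag1 and Heyl in the 3 models, and below them for Notch1. The Heyl points of PKI BCC, from 23.1 to 32.0 CPM, are the highest of their panel.

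Notch1, the main Notch receptor of the epidermis, was lower in every BCC library than in any Con library of its model, but the fall was called in SmoM2 only, by the edgeR fits within models. The gene (ENSMUSG00000026923.15) spans 26457903 to 26516663 on chromosome 2, minus strand, in GRCm38, the build of all coordinates here. In SmoM2 it had 463, 389 and 437 CPM in Con and 340, 363, 282 and 332 CPM in BCC. The groups did not overlap, and the log2 fold change was −0.37 (edgeR adjusted p 0.0164, SE 0.10). In Gnas-eKO the values were 458, 463 and 452 CPM in Con and 320, 372, 255 and 346 CPM in BCC, a log2 change of −0.48 ± 0.15 (SE; edgeR adjusted p 0.128). In PKI they were 436, 421 and 418 CPM in Con and 353, 389, 396 and 396 CPM in BCC, with a log2 change of −0.13 ± 0.07 (SE; edgeR adjusted p 0.164). The fall in Gnas-eKO passed with the DESeq2 Wald test (adjusted p 0.0261) and in the joint fit of all libraries (edgeR adjusted p 0.00473), in a span of 0.00473 to 0.26 over its alternatives with all libraries. The ratio of means was 0.902 for PKI, 0.766 for SmoM2 and 0.706 for Gnas-eKO, but the PKI effect was not separated from that in SmoM2 (log2 difference 0.24, edgeR adjusted p 0.168, SE 0.12) or Gnas-eKO (0.35, edgeR adjusted p 0.19, SE 0.16). The SmoM2 call was lost without Con replicate 1 (edgeR adjusted p 0.0503).

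Notch2 and Notch3 fell in SmoM2, and both changes in PKI differed from those in SmoM2. Notch2 (ENSMUSG00000027878.11; chromosome 3, 98013527 to 98150361, plus strand), a receptor also present across the epidermis, had 129, 145 and 192 CPM in SmoM2 Con. In SmoM2 BCC it had 106, 112, 108 and 95.7 CPM, all below the controls, which were themselves spread by the high Con replicate 3. Its log2 fold change was −0.54 (edgeR adjusted p 0.0116, SE 0.13), and it was −0.36 without that replicate, still called. Notch3 (ENSMUSG00000038146.8; chromosome 17, 32120820 to 32166852, minus strand), a receptor best known from vessel-wall cells but also made by keratinocytes, had 132, 149 and 150 CPM in SmoM2 Con. It had 104, 112, 90.4 and 92.5 CPM in SmoM2 BCC, again with no overlap, and fell by 0.52 on the log2 scale (edgeR adjusted p 0.00189, SE 0.09).

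In PKI neither receptor passed the test. Notch2 ranged over 125 to 142 CPM in Con and 120 to 153 CPM in BCC, and its log2 fold change was −0.01 (edgeR adjusted p 0.972, SE 0.10). Notch3 ranged over 139 to 152 CPM in Con and 129 to 156 CPM in BCC, with a log2 change of −0.03 ± 0.09 (SE; edgeR adjusted p 0.792). The BCC effect in PKI was higher than in SmoM2 by 0.54 for Notch2 (edgeR adjusted p 0.0347, SE 0.17) and by 0.48 for Notch3 (edgeR adjusted p 0.0123, SE 0.13), as log2 differences. The Notch2 difference did not pass in a joint fit of all libraries (edgeR adjusted p 0.105; its alternatives with all libraries gave 0.0317 to 0.125). It also failed without SmoM2 Con replicate 3, SmoM2 BCC replicate 4, PKI Con replicate 2 or 3, or PKI BCC replicate 3, where adjusted p was 0.0534 to 0.0888. The Notch3 difference failed in the joint fit (adjusted p 0.068, range 0.0114 to 0.068).

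In Gnas-eKO, Notch2 ranged over 115 to 153 CPM in Con and 83.7 to 145 CPM in BCC, and Notch3 over 124 to 138 and 79.7 to 132 CPM. Both pairs of ranges overlapped. The log2 fold changes were −0.21 (edgeR adjusted p 0.612, SE 0.19) and −0.39 (edgeR adjusted p 0.241, SE 0.17). Without BCC replicate 2, the library that stood apart, Notch3 had −0.55 and passed (edgeR adjusted p 0.0265). It also passed with every library kept when the 3 models were fitted jointly (−0.40, edgeR adjusted p 0.037). The difference between the Gnas-eKO and SmoM2 effects was 0.34 for Notch2 (edgeR adjusted p 0.727, SE 0.24) and 0.13 for Notch3 (edgeR adjusted p 0.88, SE 0.20), which did not separate the 2 models. PKI minus Gnas-eKO was 0.36 for Notch3 (edgeR adjusted p 0.272, SE 0.20), and without Gnas-eKO BCC replicate 2 it was 0.52 and passed (edgeR adjusted p 0.0306). Notch1 held 48.5% ± 4.37 (SD, n = 3) of the summed receptor level per kilobase in SmoM2 Con and 51.1% ± 2.12 (SD, n = 4) in SmoM2 BCC, and the ranges overlapped. Its mean share went the other way in Gnas-eKO, from 52.6% to 49.6%, and in PKI, from 49.4% to 47.5%, also with overlapping ranges.

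Jag1 was higher in every tumour library than in any control of its model, and the mean ratio was nearly the same in the 3 models. The gene (ENSMUSG00000027276.7) lies on chromosome 2 from 137081456 to 137116644, minus strand, and encodes a ligand that in mouse skin is prominent in the hair follicle. In SmoM2 it had 121, 126 and 111 CPM in Con and 208, 206, 196 and 199 CPM in BCC. In PKI it had 127, 108 and 128 CPM in Con and 210, 239, 182 and 200 CPM in BCC. The tumour libraries were above every control in both models, and the BCC libraries of SmoM2 were the most alike. The log2 fold change was 0.78 in SmoM2 (edgeR adjusted p 2.31e-05, SE 0.06) and 0.80 in PKI (edgeR adjusted p 0.000861, SE 0.11).

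In Gnas-eKO, Jag1 had 110, 142 and 150 CPM in Con and 238, 172, 240 and 265 CPM in BCC. The groups did not overlap either, and the lowest tumour value was that of BCC replicate 2. The log2 fold change of 0.79 (edgeR adjusted p 0.0691, SE 0.18) missed the threshold. It passed without that library (0.91, edgeR adjusted p 0.00837) and in the joint fit (adjusted p 0.000679, range 0.000679 to 0.185 over its alternatives with all libraries). The ratio of mean CPM, BCC over Con, was 1.69 for SmoM2, 1.71 for Gnas-eKO and 1.72 for PKI. The log2 effects differed between models by 0.02 (Gnas-eKO minus SmoM2, SE 0.19, edgeR adjusted p 0.981), 0.02 (PKI minus SmoM2, SE 0.12, edgeR adjusted p 0.917) and 0.01 (PKI minus Gnas-eKO, SE 0.22, edgeR adjusted p 0.988). A difference of the size of these SEs would not have been detected.

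Jag2, the more abundant Jagged ligand of control epidermis, fell in PKI and passed the test in neither of the other models. It (ENSMUSG00000002799.6) spans 112907819 to 112929776 on chromosome 12, minus strand. In PKI it had 331, 317 and 334 CPM in Con and 176, 203, 216 and 224 CPM in BCC. Every tumour library was far below every control, and the log2 fold change was −0.66 (edgeR adjusted p 0.000788, SE 0.09). In SmoM2 the ranges were 249 to 287 CPM in Con and 258 to 277 CPM in BCC, and in Gnas-eKO they were 258 to 272 and 230 to 279 CPM, so the groups overlapped in both. The log2 fold changes there were 0.06 (edgeR adjusted p 0.586, SE 0.07) and 0.00 (edgeR adjusted p 0.999, SE 0.12). The PKI effect was lower than that in SmoM2 by a log2 difference of −0.72 (edgeR adjusted p 0.000536, SE 0.11) and lower than that in Gnas-eKO by −0.66 (edgeR adjusted p 0.0117, SE 0.14). The controls of PKI also lay above the controls of the other models, a comparison across batches that was not tested.

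Dll1, the least abundant of the 3 ligands, was lower in PKI tumours. The gene (ENSMUSG00000014773.13) lies on chromosome 17 from 15367354 to 15376872, minus strand. In PKI it had 41.9, 40.1 and 45.8 CPM in Con and 33.5, 28.7, 27.3 and 30.1 CPM in BCC, without overlap. Its log2 fold change was −0.50 (edgeR adjusted p 0.00414, SE 0.10). In SmoM2 the values were 42.1, 35.3 and 33.6 CPM in Con and 22.7, 32.1, 30.1 and 27.7 CPM in BCC. They did not overlap, but the log2 fold change of −0.38 (SE 0.13) had an edgeR adjusted p of 0.05001, just outside the threshold, and alternatives with all libraries gave 0.0295 to 0.182. In Gnas-eKO the ranges of 28.2 to 40.4 CPM and 20.1 to 30.6 CPM overlapped, and the log2 fold change was −0.35 (edgeR adjusted p 0.344, SE 0.18).

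Together these values turned the ligand pool from Jag2 towards Jag1. As a share of the summed level of the 3 ligands per kilobase of exon, Jag1 went from 30.7% ± 1.88 (SD, n = 3) in Con to 43.3% ± 0.692 (SD, n = 4) in BCC in SmoM2. In Gnas-eKO it went from 33.3% ± 3.91 to 47.2% ± 5.3, and in PKI from 26.6% ± 1.27 to 49.4% ± 3.87. In each model the lowest BCC share was above the highest Con share. The Jag2 share was 56.3%, 55.3% and 60.4% in the Con groups of SmoM2, Gnas-eKO and PKI, and 48.4%, 45.5% and 40.8% in their BCC groups. By exon union the mean Jag1 share was above that of Jag2 in PKI BCC and Gnas-eKO BCC and below it in SmoM2 BCC. That order turned with the length of the longest transcript, by which Jag2 stayed above Jag1 in PKI BCC (40.1 against 37.0 CPM per kilobase) and in Gnas-eKO BCC (51.1 against 40.7). By that length the Jag1 share was lower in every group but still higher in BCC than in Con: it went from 25.7% to 37.2% in SmoM2 and from 28.0% to 41.0% in Gnas-eKO, and it was 43.3% in PKI BCC. These shares restate the 3 genes' levels and were not tested on their own.

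**Figure D3:**
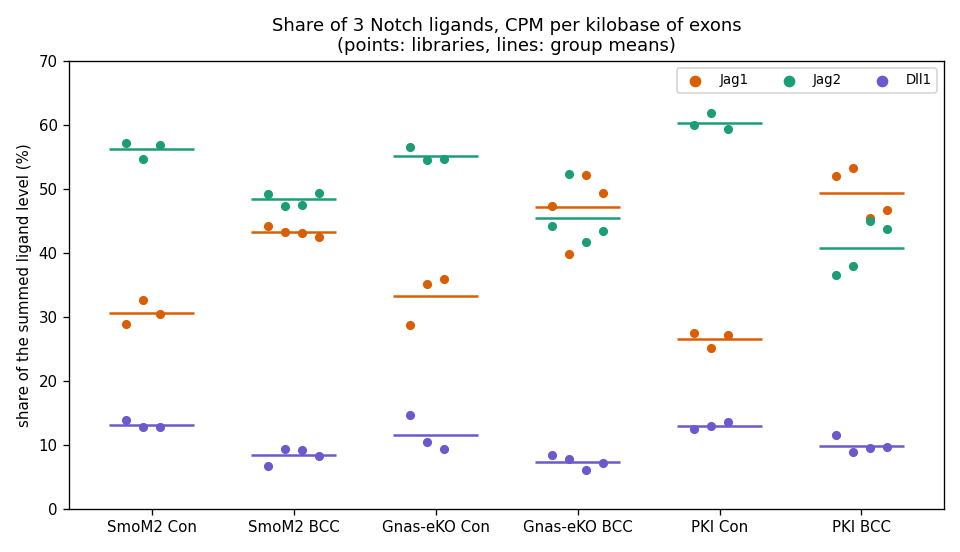
Share in percent (y axis) of Jag1, Jag2 and Dll1 in their summed level, CPM per kilobase of exons, in each library (points) and as group means (lines). The Jag1 mean goes from 26.6% to 49.4% in PKI and from 30.7% to 43.3% in SmoM2. In PKI it ends above Jag2 by this length but not by that of the longest transcript, which gives Jag1 43.3%.

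Of the 4 target genes, the 2 abundant ones, Hes1 and Nrarp, did not pass in any model, while the 2 rare ones rose, Hey1 in SmoM2 and Gnas-eKO and Heyl in SmoM2 and PKI. Hes1 (ENSMUSG00000022528.8; chromosome 16, 30064384 to 30067796, plus strand), a repressor that holds back early keratinocyte differentiation, ranged over 45.3 to 94.8 CPM in the 9 Con libraries and 50.7 to 99.2 CPM in the 12 BCC libraries. Its log2 fold changes were −0.02 in SmoM2 (edgeR adjusted p 0.946, SE 0.17), 0.51 in Gnas-eKO (edgeR adjusted p 0.253, SE 0.22) and −0.10 in PKI (edgeR adjusted p 0.645, SE 0.16). Groups overlapped in each model. Nrarp (ENSMUSG00000078202.3; chromosome 2, 25180758 to 25183339, plus strand) ranged over 98.3 to 140 CPM in Con and 119 to 192 CPM in BCC. Its log2 fold changes were 0.26 in SmoM2 (edgeR adjusted p 0.212, SE 0.14), 0.33 in Gnas-eKO (edgeR adjusted p 0.348, SE 0.17) and 0.22 in PKI (edgeR adjusted p 0.181, SE 0.12), with overlapping groups.

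Hey1, a repressor of the Hes-related family, rose in SmoM2 and Gnas-eKO and was too low to be tested in PKI. It (ENSMUSG00000040289.8) lies on chromosome 3 from 8663359 to 8667256, minus strand. In SmoM2 it had 1.06, 0.689 and 1.19 CPM in Con and 3.36, 3.18, 1.95 and 2.01 CPM in BCC. These are 12 to 23 counts per Con library and 40 to 74 per BCC library, with no overlap. The log2 fold change was 1.43 (edgeR adjusted p 0.00871, SE 0.32). In Gnas-eKO it had 0.861, 0.896 and 0.921 CPM in Con and 2.84, 2.20, 4.29 and 4.15 CPM in BCC, again apart, with a log2 change of 1.93 ± 0.34 (SE; edgeR adjusted p 0.0372). The Gnas-eKO call was lost without any 1 of the 3 Con libraries (edgeR adjusted p 0.163 to 0.189) and without BCC replicate 1 (0.0833) or 4 (0.109). It held without BCC replicate 2 (2.09, edgeR adjusted p 0.00552).

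In PKI, Hey1 had 0.809, 0.506 and 0.301 CPM in Con and 0.460, 0.310, 1.21 and 0.219 CPM in BCC. The groups overlapped, and 3 of the 4 tumour libraries held 4 to 9 counts, against 27 in BCC replicate 3. Hey1 entered the contrasts of PKI with the other models only because it passed the filter through the SmoM2 or Gnas-eKO libraries. They gave log2 differences of −1.38 against SmoM2 (edgeR adjusted p 0.175, SE 0.71) and −1.88 against Gnas-eKO (edgeR adjusted p 0.117, SE 0.71). Neither passed. Leaving out PKI BCC replicate 3, which held 27 counts, gave −2.12 (edgeR adjusted p 0.0203) and −2.61 (edgeR adjusted p 0.0208). With Hey1 too low to be tested within PKI, none of these values can show whether its effect there differs.

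Heyl, a further repressor of the family, showed the widest change, and it was widest in PKI. The gene (ENSMUSG00000032744.4) spans 123233556 to 123249875 on chromosome 4, plus strand. In PKI it had 1.26, 0.127 and 0.181 CPM in Con and 24.9, 32.0, 27.7 and 23.1 CPM in BCC. The Con values rest on 25, 2 and 3 counts and the BCC values on 421 to 621 counts per library, so the groups are far apart while the control level itself is poorly measured. The ratio of mean CPM was 51.4, and the log2 fold change was 5.58 (edgeR adjusted p 0.000339, SE 0.51). Alternatives with all libraries gave log2 fold changes of 4.27 to 5.93. Without Con replicate 1, which held most of the control counts, the edgeR log2 fold change was 7.40 (adjusted p 5.71e-06), and without any other library it was 5.16 to 5.65.

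In SmoM2, Heyl had 0.552, 1.38 and 3.19 CPM in Con and 6.30, 5.01, 7.33 and 6.04 CPM in BCC. Every tumour library was above the highest control, which was Con replicate 3. The log2 fold change was 1.88 (edgeR adjusted p 0.0178, SE 0.47), was 2.72 without Con replicate 3, and lost its call without Con replicate 2 (1.76, edgeR adjusted p 0.0745). In Gnas-eKO it had 2.03, 0.784 and 1.23 CPM in Con and 8.38, 3.43, 4.50 and 10.9 CPM in BCC, with no overlap and the lowest tumour value in BCC replicate 2. The log2 fold change of 2.35 (edgeR adjusted p 0.0586, SE 0.50) missed the threshold. It passed without BCC replicate 2 (2.57, edgeR adjusted p 0.0104) and with the DESeq2 Wald test (adjusted p 0.000132; its alternatives with all libraries gave 0.000132 to 0.0651).

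The BCC effect on Heyl in PKI exceeded that in SmoM2 by a log2 difference of 3.70 (edgeR adjusted p 0.00523, SE 0.79) and that in Gnas-eKO by 3.26 (edgeR adjusted p 0.0256, SE 0.80). The first was 5.52 without PKI Con replicate 1 and 2.86 without SmoM2 Con replicate 3, called in both. The second was 5.06 without PKI Con replicate 1. It lost its call without Gnas-eKO Con replicate 1, PKI Con replicate 2 or 3, or PKI BCC replicate 2, where it was 2.83 to 3.16 (edgeR adjusted p 0.0517 to 0.0845). As a share of the summed target level per kilobase, Heyl went from 0.126% in PKI Con to 5.61% in PKI BCC, so Nrarp and Hes1 still made up most of the target RNA.

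Set against each other, the SmoM2 and Gnas-eKO effects differed by the edgeR test for 0 of the 10 genes, and 0 had an unadjusted p under 0.05; 0.175% of all genes were called in that comparison (0.0758% higher and 0.0991% lower). PKI differed from SmoM2 for 4 of the 10 (Heyl, Notch2 and Notch3 higher, Jag2 lower), where 24.9% of all genes did (12.6% higher and 12.3% lower). PKI differed from Gnas-eKO for 2 of the 10 (Heyl higher, Jag2 lower), where 9.06% of all genes did (4.49% higher and 4.57% lower). Leaving out 1 library gave 1 to 3 of the 10 there, and 673 to 2512 of all genes against 1564 with every library. In the joint fit the Notch2 and Notch3 differences between PKI and SmoM2 did not pass. The PKI libraries and those of SmoM2 and Gnas-eKO recur in these comparisons, which are therefore not independent.

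Markers of other cell populations also moved, and in bulk RNA fewer cells of a type and less RNA per cell cannot be told apart. The summed level of 9 hair follicle markers, most of it Krt17 and Krt79, went from 2370 to 3100 CPM in Con to 6800 to 8560 CPM in BCC in SmoM2. In Gnas-eKO it was 2510 to 3080 CPM in Con and 3390 to 7570 CPM in BCC, and in PKI 2520 to 2920 CPM and 4070 to 7180 CPM. Sox9, a marker of the list, had means of 110 CPM in PKI Con and 116 CPM in PKI BCC. Of the markers tested, 5 of 8 rose and 1 fell in SmoM2, 1 of 8 rose in Gnas-eKO and 6 of 9 rose in PKI. Of 7 fibroblast markers, 2 of 6 tested rose in SmoM2 (summed level 17.2 to 39.8 CPM in Con, with Dpt at 0, and 388 to 524 in BCC). Of these, 1 of 6 rose in Gnas-eKO (16 to 27.7 and 93.6 to 578 CPM) and 3 of 6 in PKI (15.9 to 43.5 and 84.6 to 145 CPM). Most of each sum was Dcn, at a mean of 21.0 CPM in SmoM2 Con and 440 CPM in SmoM2 BCC. The collagen genes differed there: Col1a1 had means of 1.57 and 1.97 CPM, and Col3a1 had 2.7 and 2.53. Col1a2 had 1.96 CPM in SmoM2 Con against 14.8 in SmoM2 BCC. In the other models the BCC mean of Col1a1 was above its Con mean: 13.9 against 1.79 CPM (Gnas-eKO), and 10.5 against 2.51 (PKI). All 4 Langerhans cell markers rose in PKI, from a sum of 50.9 to 155 CPM to 375 to 690 CPM, and 0 of 4 were called in SmoM2 or Gnas-eKO. Also in PKI, 4 of 5 T cell markers and 4 of 6 macrophage markers rose, and 4 of 5 melanocyte markers fell. In SmoM2, 2 of 5 melanocyte markers and 1 of 3 tested macrophage markers fell, and 0 of 3 tested T cell markers were called. In Gnas-eKO, 0 markers of these lists were called. Of 7 suprabasal keratinocyte markers, 4 fell in SmoM2, and in PKI 3 fell and 1 rose. Of 7 basal markers, 5 fell and 1 rose in SmoM2, and 4 fell in PKI. The part of these populations in the Notch gene changes was not tested.

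Mural cells, the pericytes and smooth muscle of vessels in which Notch3 and Heyl are best known, were looked at by 9 markers, of which 8 are in the table. Their summed level went from 106 to 112 CPM in PKI Con to 70.7 to 91.9 CPM in PKI BCC, where Heyl rose most. In SmoM2, where Notch3 fell, it was 88.5 to 115 CPM in Con and 188 to 214 CPM in BCC, and in Gnas-eKO 82.1 to 105 CPM and 125 to 224 CPM. Most of the sum was Cspg4, which keratinocytes also make. Of the pericyte genes, Rgs5 stayed at or below 0.487 CPM and Pdgfrb at or below 1.92 CPM in every library. Kcnj8 and Abcc9 rose in SmoM2, from 0.0973 to 7.97 CPM and from 0.064 to 3.97 CPM in the group means. In Gnas-eKO their means went from 0.174 to 0.868 CPM and from 0.188 to 0.843 CPM. In PKI BCC their means were 0.198 and 0.0763 CPM. Acta2, smooth muscle actin, rose in PKI from 0.0633 to 0.506 CPM in Con to 2.73 to 5.42 CPM in BCC. By count, 4 of 6 tested mural markers rose in SmoM2 and none fell, and 0 of 6 were called in Gnas-eKO. In PKI 1 of 3 rose (Acta2) and 1 fell (Cspg4). The 7 endothelial markers summed to 1.15 to 1.78 CPM in SmoM2 Con, with Emcn and Cldn5 at 0, and to 2.32 to 3.9 CPM in SmoM2 BCC. There 1 of 2 tested rose. Their sums were 1.52 to 3.89 and 2.46 to 6.0 CPM in Gnas-eKO, and 1.71 to 4.3 and 2.89 to 4.81 CPM in PKI. In these models 0 of 2 and 0 of 1 tested were called.

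The rest of the pathway was read from a list of 60 further genes, 58 of which are in the table. In SmoM2, 14 rose and 9 fell of 51 tested, or 45.1% against 29.7% of all genes, with a median log2 fold change of 0.06. In Gnas-eKO, 1 rose of 52 tested, or 1.92% against 1.63% of all genes. On leaving out any 1 Con library of that model, 0 of the list and 0 to 4 of all genes passed. In PKI, 9 rose and 10 fell of 52 tested, or 36.5%, with a median of −0.04, a share near the 34.5% of all genes. When the 21 libraries were fitted together, 13 of the list passed in SmoM2 (7 of them higher) and 4018 of all genes did, where the fit within the model called 23 and 4860. The list lost a larger part of its calls than all genes did, so its excess in SmoM2 depended on the fit. In Gnas-eKO the joint fit called 15 of the list and 2644 of all genes, against 1 and 267 within the model. Without Gnas-eKO BCC replicate 2, 6 of the list and 1910 of all genes passed in that model, against 1 and 267 with every library. Without PKI Con replicate 2, 12 of the list and 4057 of all genes passed in PKI, against 19 and 5653 with every library.

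By role, the genes that cut the receptor moved in both directions. In SmoM2 Furin, the protease that matures the receptor, and Aph1c, a subunit of the gamma-secretase that frees its inner part, rose. Adam17, a sheddase, and the gamma-secretase genes Aph1b and Ncstn fell. In PKI Furin and Adam10, the sheddase that makes the ligand-dependent cut, rose, and Adam17 and Aph1b fell. Adam10 had a log2 fold change of 0.72 in PKI (edgeR adjusted p 0.000281, SE 0.08). Of 5 genes that put sugars on the receptor, Lfng and Poglut1 rose in SmoM2 and Pofut1 fell in PKI.

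Among 6 genes for ligand uptake, Neurl1a, a ubiquitin ligase that acts on Notch ligands, rose in SmoM2 (log2 fold change 2.00 ± 0.31, SE; edgeR adjusted p 0.00101) and in PKI (2.41 ± 0.37, SE; edgeR adjusted p 0.00138). In PKI the related Neurl1b rose too (0.44), while Epn2, an adaptor for uptake at the membrane, and Mib2, another ubiquitin ligase, fell (−0.33 and −0.63), so 2 of the 6 moved each way. Among genes for receptor trafficking and turnover, Dtx3, of the Deltex family of ubiquitin ligases, rose in SmoM2 (log2 fold change 1.27 ± 0.10, SE; edgeR adjusted p 1.65e-05) and in Gnas-eKO (1.33 ± 0.24, SE; edgeR adjusted p 0.041). The Gnas-eKO call was lost without any 1 of its Con libraries or without BCC replicate 1 or 4 (edgeR adjusted p 0.0953 to 0.209). Numbl, a relative of the Notch antagonist Numb, rose by 1.17 in SmoM2 (edgeR adjusted p 2.01e-05, SE 0.09), where Dtx2, Fbxw7 and Itch fell. In PKI Dtx4 (log2 fold change −0.82, edgeR adjusted p 0.0407, SE 0.26) and Numb fell. The Dtx4 call was lost on leaving out any 1 library but BCC replicate 1 (edgeR adjusted p 0.0562 to 0.123).

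Maml2, a coactivator that sits on the Notch and RBPJ complex, rose in SmoM2 (log2 fold change 1.13, edgeR adjusted p 0.000192, SE 0.13) and fell in PKI (log2 fold change −0.68, edgeR adjusted p 0.0221, SE 0.19). The PKI call was lost without Con replicate 1 (−0.55, edgeR adjusted p 0.0809) or BCC replicate 2 (−0.59, edgeR adjusted p 0.0515). Maml1 rose in both models, Rbpj itself rose in SmoM2, and Kat2a, a histone acetyltransferase, rose in PKI. Among the corepressor genes, Tle2, Tle3 and Tle4 rose in SmoM2, and Hdac1, Hdac2 and Tle3 rose in PKI. Hes2, a repressor outside the 4 targets, fell in SmoM2 (log2 fold change −2.01, edgeR adjusted p 0.00167, SE 0.33), and Hes6, which opposes Hes1, fell in SmoM2 and PKI. Dlk2, a ligand-like protein thought to restrain Notch, fell in PKI (log2 fold change −0.69, edgeR adjusted p 0.00405, SE 0.13).

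**Figure D4:**
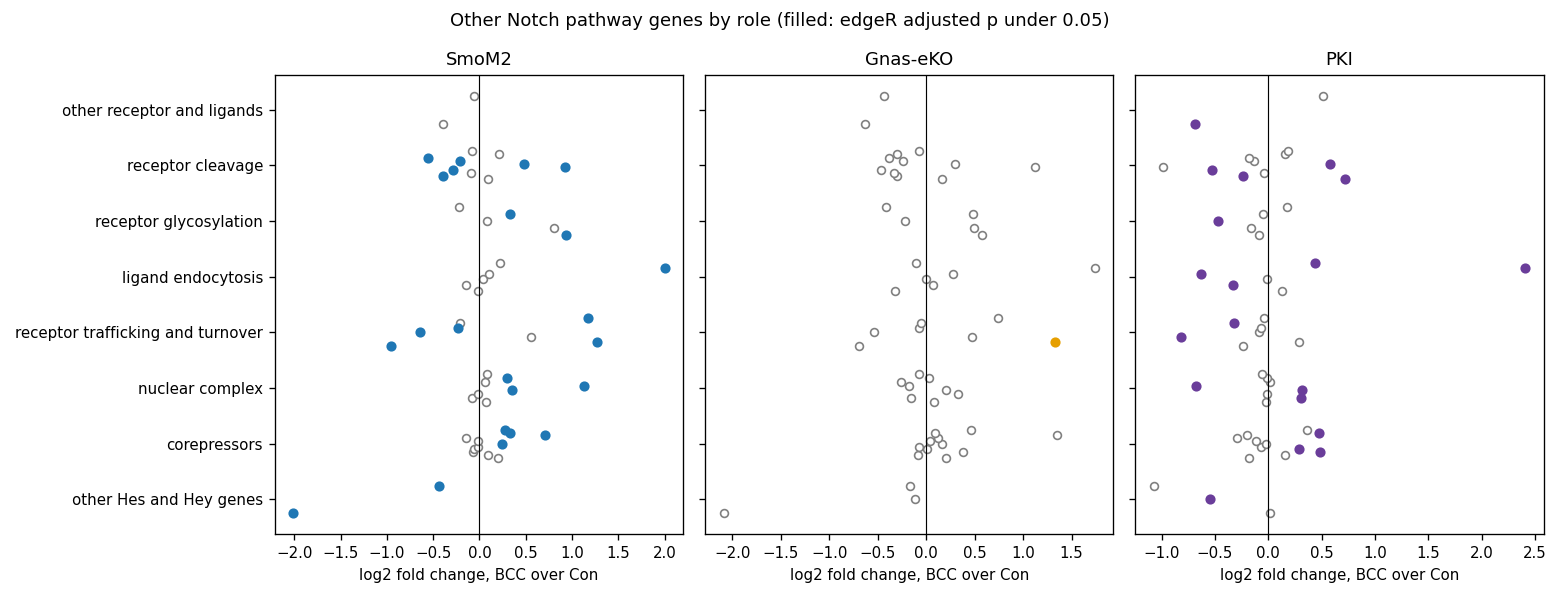
Log2 fold change of BCC over Con (x axis) of the tested further pathway genes, in lines by role (y axis), for SmoM2, Gnas-eKO and PKI. Filled points passed the adjusted threshold. SmoM2 and PKI have filled points on both sides of 0, and Gnas-eKO has 1 filled point, Dtx3 at 1.33. Each panel has its own x scale.

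The genes most like each member were ranked by Pearson correlation of log2 CPM over the 21 libraries, among 12029 or 12030 genes. These libraries share batches and the BCC and Con split, so the values only describe likeness. Heyl was most like Lef1 (r = 0.955, rho = 0.961), a transcription factor of Wnt signalling and of the hair follicle list above, and Tnik (r = 0.954). Lef1 lay at 1.77 to 5.36 CPM in PKI Con and 24.7 to 31 CPM in PKI BCC, and at 7.57 to 11.5 CPM in SmoM2 BCC and 7.6 to 12.2 CPM in Gnas-eKO BCC. As for Heyl, PKI BCC was the highest group. Jag1 was most like Cxadr (r = 0.951) and Nap1l1 (0.942), Notch3 most like Fzd10 (r = 0.935) and Slc16a9 (0.934), Hey1 most like Tnfrsf11b (r = 0.931) and Bid (0.908), and Jag2 most like Ptpn14 (r = 0.93) and Aptx (0.912). Celsr1 (r = 0.914) and Paqr3 (0.91) led for Notch1, and Rbsn (r = 0.906) and Nomo1 (0.891) for Notch2. For Nrarp, Dll1 and Hes1 the best values were lower. They were 0.825 with Ephb3 and 0.822 with Wdr33 for Nrarp, 0.822 with Carhsp1 and 0.812 with Ncoa3 for Dll1, and 0.785 with Tbc1d4 and 0.774 with Med18 for Hes1.

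Several members overlap other annotated genes: Notch1 overlaps 0610009E02Rik and Gm13568, Notch2 Gm42819 and Gm42820, Notch3 Gm17276, and Nrarp Gm38287. These reached at most 0.181 to 1.51 CPM in any library. Whether counting used the strand is not stated, so reads shared with them cannot be assigned.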

How the data were processed

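Per the labels' protocols, tail epidermis was split from dermis with trypsin and dispase, and libraries were made from polyA RNA with a stranded ligation kit. The authors deposited estimated counts per gene without normalization, of which 33.1% of values are not whole. They also deposited a normalized signal per gene, which is TMM-scaled per the file headers and was used for alternatives only. The submitters' processing notes name bcl2fastq 2.20, cutadapt 1.18, STAR 2.7.0f, Partek and the build mm10. The counting step and its use of strand are not given in the sources used here. The table holds no gene with fewer than 10 counts over the 21 libraries.

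Estimated counts were rounded and tested within each model (7 libraries) with edgeR 4.0.16 (filterByExpr, TMM, robust glmQLFit, glmQLFTest) in R 4.3.3, with Benjamini-Hochberg adjustment over all genes tested. Genes under 0.05 were called. SEs were derived from the test: the size of the log2 change over the root of its F statistic. Differences between models were interaction contrasts over 14 libraries. CPM used TMM sizes over 21 libraries, and 3 counts were taken as the floor, which covers counting error only. Gene coordinates and exon lengths came from GENCODE M21, whose starts the deposited ones match. Scripts were tested on simulated data. Libraries of a group differed by more than counting noise (chi-square over its degrees of freedom 9.19 to 27.5).

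The members and lists were chosen with earlier results of these data known. The text names the 10 members, the 5 called pathway genes of largest absolute change in each model, and the 2 genes with the most similar pattern per member, at a mean log2 CPM of at least 2. Other names stand for list counts or checks. Some genes of the pathway list are not reported here by name. Alternatives were DESeq2 size factors, the DESeq2 1.42.0 Wald test, no filter, a joint fit of 21 libraries, a replicate block, the normalized signal with limma 3.58.1 (pseudocounts 1 and 0.1), and leaving out each library.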

Additional observations from a re-analysis of the deposited data

Results flagged for a closer look

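PKI BCC replicate 1 had 353 CPM of Notch1, apart from the other 3 libraries of its group, with a gap of 0.846 of the group's range, past Dixon's limit for 4 values. This was 1 of 30 groups of 4 libraries examined, and chance marks about 1 group in 20. Tests of the difference itself set PKI apart from SmoM2 for Heyl (a log2 difference of 3.70), Jag2 (−0.72), Notch2 (0.54) and Notch3 (0.48). They set it apart from Gnas-eKO for Heyl (3.26) and Jag2 (−0.66).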

How the results depend on the processing

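Counts in Gnas-eKO depended most on the setting. Of all genes, 267 were called there, 1535 with the DESeq2 Wald test, 2644 in the joint fit and 0 to 1910 on leaving out 1 library, the highest without BCC replicate 2. Of the 10 members, 1 was called, 4 with DESeq2, 5 in the joint fit, 2 with no filter and 0 to 4 on leaving out 1 library. Of the further pathway genes, 1 was called, 7 with DESeq2, 15 in the joint fit and 0 to 6 on leaving out 1 library. Pathway calls in SmoM2 were 23, and 13 in the joint fit, where calls of all genes were 4860 and 4018. In PKI pathway calls were 19, and 12 to 18 on leaving out 1 library. Calls of all genes there were 5653, and 4057 to 5466. Genes differing between Gnas-eKO and SmoM2 numbered 30, 66 in the joint fit and 14 to 79 on leaving out 1 library. Between PKI and Gnas-eKO they numbered 1564, with 673 to 2512 on leaving out 1 library, and the 2 members there became 1 to 3. Between PKI and SmoM2 the members were 4, and 2 in the joint fit.

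Replicate numbers did not pair the libraries: correlations of same-numbered Con and BCC deviations were −0.127 to 0.283, and not every library matched its own number best. With the number as a block, Gnas-eKO had 135 calls and 0 pathway genes, SmoM2 had 15 pathway genes, and PKI against Gnas-eKO had 925 calls and 1 member. Notch1 in SmoM2 (adjusted p 0.0684), Hey1 in Gnas-eKO (0.11) and Jag2 in PKI against Gnas-eKO (0.0576) then missed the threshold. The Gnas-eKO minus SmoM2 differences of Heyl and Jag1 both became −0.07.

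The signs that turned belong to values that missed the threshold, and the cause was not tested. Jag2 in Gnas-eKO was −0.03 with the block, and 0.00 or −0.01 in the other 6 alternatives with all libraries. On leaving out 1 library it was −0.03 to 0.06, and Hes1 was −0.17 to 0.07 in SmoM2 and −0.20 to 0.10 in PKI. Notch2 and Notch3 in PKI were −0.07 to 0.03 and −0.08 to 0.01. Gnas-eKO minus SmoM2 was −0.35 to 0.91 for Heyl, −0.10 to 0.13 for Jag1, −0.12 to 0.00 for Jag2 and −0.04 to 0.22 for Notch3. For Jag1, PKI minus SmoM2 was −0.05 to 0.08 and PKI minus Gnas-eKO −0.11 to 0.13. Jag1, Notch2, Notch3 and Hey1 in SmoM2, and Jag1, Jag2, Dll1 and Heyl in PKI, stayed called in all alternatives and on leaving out any library. Depth limits Hey1 and Heyl in PKI Con, where libraries held as few as 2 counts.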
